A study of Saccharomyces cerevisiae with 4 samples.

Results

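The small-subunit processome factors examined here are 36 yeast genes chosen by systematic name: the UTP proteins, MPP10, IMP3, IMP4 and other factors of 18S rRNA processing. The table of 5799 genes held 33 of them, and all 33 had enough values to be tested; UTP10, UTP14 and RRP5 were not analysed here. The rule for choosing them was by function and used no measured value, though earlier results of these data were known when it was set.

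The processome is a large nucleolar particle that forms on the nascent ribosomal RNA precursor. In it the U3 small nucleolar RNA, its proteins and many assembly factors fold the region that becomes 18S rRNA and prepare it for cleavage, the first stage in making the small ribosomal subunit. Genes of ribosome assembly form one of the largest co-regulated groups in yeast: they are known to be transcribed in step with growth and to be repressed together in many stresses.

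Expression was compared between cells treated with acetic acid and untreated cells of Saccharomyces cerevisiae BY4741, a haploid laboratory strain (MATa, his3Δ1, leu2Δ0, met15Δ0 and a ura3Δ allele; LYS2 intact). The labels number the ura3Δ allele differently from sample to sample, although they name the same strain throughout. Cultures of 50 ml in YPD rich medium at 28 °C were treated at an absorbance of 0.6 with 30 mM acetic acid for 2 h; the untreated cultures received none. Each of 4 two-colour arrays held RNA of a treated and an untreated culture, 2 of them with the treated RNA labelled by Cy5 and 2 by Cy3. They are named by that dye and the labels' replicate number (Cy5 arrays 1 and 2, Cy3 arrays 1 and 2). Both channels carried the same strain and only their ratio was deposited, so the ratios give no level of any gene and cannot check the strain. The submitters describe biological replicates. Whether arrays of one number share their RNA is not stated, so p-values measure the spread between arrays, which may be partly technical.

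Values are log2 ratios, treated over untreated, where 1 is a 2-fold increase; base 2 is assumed. The direction is likely rather than stated. It rests on genes that the factor Haa1 is known to switch on in weak acid, of which all 8 tested lay above 0 (median 3.94), and if the ratios ran the other way all directions given here would be inverted. The arrays had values for 5133 to 5505 genes. Cy3 array 1 stood apart from the rest: its standard deviation over genes was 1.05 against 0.70 to 0.81 on the other arrays, and its correlations with them across genes (r = 0.41 to 0.62) were lower than theirs with each other (0.67 to 0.80). Calls that turn on this array are given with and without it, as are the means it moved most. Means are given with the SD over arrays, and n is 4 unless stated; the number of arrays limits the precision of every value.

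The comparison of treated with untreated cells asks how transcripts of the processome genes responded to acid stress. UTP30 rose, and the other 32 genes did not pass the test in either direction. By limma with Benjamini-Hochberg adjustment over all 5291 genes tested and a threshold of 0.05, 1 of 33 processome genes was higher and 0 were lower. Over all genes 8.85% were higher and 2.02% lower, so in a group of this size neither count stands out above the background. At an unadjusted p under 0.05 there were 3 processome genes, UTP30 above 0 and RRP7 and UTP22 below it, against 29.8% of all genes. The median of the 33 mean ratios was -0.08, with the quartiles at -0.24 and 0.19, beside a median of -0.04 over all genes tested. Of the 33 means 14 lay above 0 (42.4%, against 46.7% of all genes tested) and 19 below. Within 0.5 of 0 lay 29 of the 33, a share not counted over all genes.

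The precision of the arrays sets how much change could have been missed. For 27 of 33 processome genes (81.8%, against 69.4% of all genes tested) the 95% confidence interval of the mean ratio lay wholly within a 2-fold change in either direction. The 6 others were UTP30, UTP13, UTP7, UTP22, IMP3 and RRP7. Only UTP30 (1 of 33) had a mean of at least 2-fold, beside 7.71% of all genes. Genes with large changes lower the share of intervals within 2-fold, so the shares do not compare precision alone. By median SD over arrays the processome genes varied more than all genes tested (0.41 against 0.36). Both values include Cy3 array 1, and the comparison was not made without it. Changes inside each interval were not excluded: even the narrowest of the 33, that of UTP4, ran from -0.39 to 0.26.

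**Figure D1:**
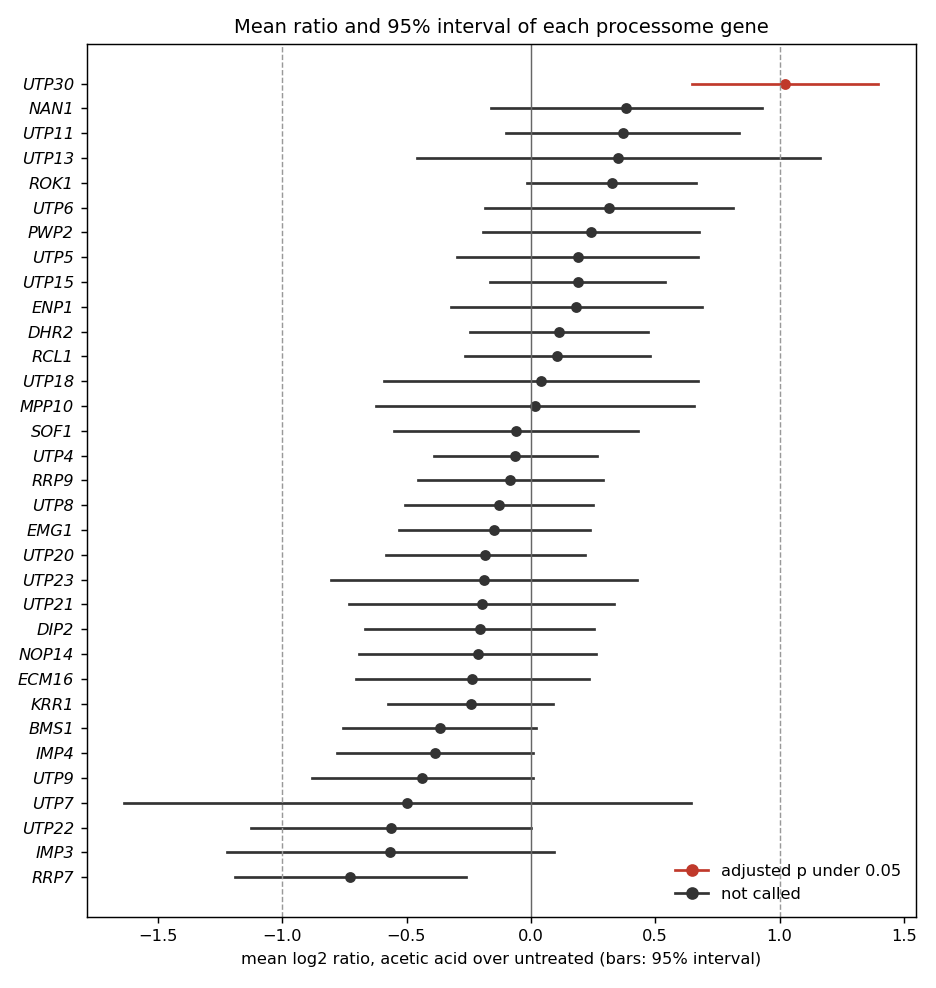
Mean log2 ratio of acetic acid over untreated for each of the 33 processome genes (points, horizontal axis) with its 95% confidence interval from limma (bars); dashed lines mark a 2-fold change. UTP30, in red, has an interval of 0.65 to 1.40 and is the gene past the threshold. The intervals of RRP7 (-1.19 to -0.26) and, barely, UTP22 (-1.13 to -0.0013) also lie clear of 0.

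UTP30 (YKR060W) encodes a nonessential processome-associated protein with a domain related to ribosomal protein L1. Its log2 ratios were 1.00 and 0.99 on the Cy5 arrays (1 and 2) and 0.76 and 1.35 on the Cy3 arrays. All arrays thus lay close together and well above 0. The mean of 1.02 ± 0.24, or 2.03-fold, passed the test (limma adjusted p = 0.0111), and 289 of the genes tested had a higher mean. The call depended on the arrays used. The adjusted p of limma was 0.00577 without Cy3 array 1, but 0.0557, 0.0518 and 0.0650 without Cy5 array 1, Cy5 array 2 and Cy3 array 2, in fits where 5.08%, 4.55% and 3.61% of all genes were higher. The mean moved little, between 0.91 and 1.11. Among the neighbours of UTP30 in the reference gene order, chosen for display after its value was seen, TIF1, a translation initiation factor gene, had a mean of 0.70 ± 0.53 (adjusted p = 0.0992), and the mannosyltransferase gene KTR2 one of -0.06 ± 0.39 (adjusted p = 0.834). CIC1, a gene of large-subunit assembly whose protein is related to Utp30, had a mean of 0.31 ± 0.38 (adjusted p = 0.302).

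UTP-C is the module that joins Utp22 and Rrp7 with casein kinase 2 and Rrp36. Its members RRP7 and UTP22 had the lowest and the third lowest mean of the 33 genes. RRP7 (YCL031C) had ratios of -0.61 and -0.48 on the Cy5 arrays and -1.34 and -0.48 on the Cy3 arrays, so all arrays lay below 0, with Cy3 array 1 far under the rest. Its mean of -0.73 ± 0.41 missed the threshold (limma adjusted p = 0.0643). Without Cy3 array 1 the mean was -0.52 and RRP7 passed as lower (adjusted p = 0.0451), in a fit with 4.43% of all genes lower. UTP22 (YGR090W) had -1.25 and -0.78 on the Cy5 arrays and 0.02 and -0.26 on the Cy3 arrays; both Cy5 arrays were lower than both Cy3 arrays. Its mean was -0.56 ± 0.56 (adjusted p = 0.167), and -0.76 without Cy3 array 1 (adjusted p = 0.0588). It was -0.34 without Cy5 array 1 (adjusted p = 0.395) and -0.11 with a trend on gene length removed (adjusted p = 0.756); without Cy5 array 2 or Cy3 array 2 the adjusted p was 0.320 and 0.266.

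The partners of these proteins in UTP-C did not pass the test. Of the 4 casein kinase 2 genes tested, 0 passed in limma and 1 had an unadjusted p under 0.05. The catalytic subunit gene CKA1 had ratios of -0.59 and -0.40 on the Cy5 arrays and -0.50 and -0.14 on the Cy3 arrays, a mean of -0.41 ± 0.20 (adjusted p = 0.127). The regulatory subunit gene CKB1 had a mean of -0.55 ± 0.66 (adjusted p = 0.207), with -1.52 on Cy3 array 1 and -0.04 to -0.36 on the others. The remaining kinase genes did not lean the same way. CKB2 was above 0 on every array (mean 0.32 ± 0.27, adjusted p = 0.224). CKA2 averaged -0.04 ± 0.59 (adjusted p = 0.918), with -0.93 on Cy3 array 1 and 0.21 to 0.30 on the others. RRP36, shown because its protein belongs to the module, had a mean of 0.31 ± 0.62 (adjusted p = 0.424), above 0 on 3 arrays and below it on Cy5 array 2.

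UTP-A, also called the t-UTP module, is the first to bind the precursor and is known to be needed for its transcription as well as its processing. None of its 6 measured genes passed (limma), and 0 had an unadjusted p under 0.05. Means ran from -0.44 for UTP9 to 0.38 for NAN1, with a median of 0.06. UTP9 (YHR196W) had ratios of 0.09 and -0.44 on the Cy5 arrays and -0.76 and -0.64 on the Cy3 arrays, a mean of -0.44 ± 0.38 (adjusted p = 0.171). Cy5 array 1 was the one array above 0. NAN1 (YPL126W) had -0.16 and 0.33 on the Cy5 arrays and 1.13 and 0.24 on the Cy3 arrays (adjusted p = 0.291); its mean of 0.38 ± 0.54 became 0.14 without Cy3 array 1, the array far above the others.

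UTP4, UTP5, UTP8 and UTP15 complete the measured part of UTP-A. UTP5 (YDR398W) had ratios of 0.10 and 0.42 on the Cy5 arrays and -0.40 and 0.63 on the Cy3 arrays, and UTP15 (YMR093W) -0.06 and 0.18 on the Cy5 arrays and 0.41 and 0.22 on the Cy3 arrays. Both averaged 0.19, with SDs of 0.45 for UTP5 and 0.19 for UTP15, and each had 1 array below 0. UTP4 (YDR324C; -0.06 ± 0.11) had the smallest spread of all 33 genes and UTP8 (YGR128C) averaged -0.13 ± 0.25. No gene of the module had the same sign on every array.

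UTP-B, a module rich in WD-repeat proteins that follows UTP-A onto the precursor, had 6 measured genes. Again 0 passed in limma and 0 had an unadjusted p under 0.05, with means between -0.21 for DIP2 and 0.35 for UTP13 and a median of 0.14. The median was -0.08 without Cy3 array 1. By array it was -0.26 and -0.20 on the Cy5 arrays and 0.69 and 0.09 on the Cy3 arrays, the 0.69 being Cy3 array 1. UTP6 (YDR449C) had ratios of 0.31 and -0.12 on the Cy5 arrays and 0.96 and 0.09 on the Cy3 arrays (mean 0.31 ± 0.47, adjusted p = 0.341), and its mean was 0.10 without Cy3 array 1. PWP2 (YCR057C) had -0.21 and 0.63 on the Cy5 arrays and 0.41 and 0.13 on the Cy3 arrays (mean 0.24 ± 0.36, adjusted p = 0.394). Neither kept one sign over the arrays.

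UTP18 and UTP13 had Cy3 array 1 far above their other values. UTP18 (YJL069C) had ratios of -0.31 and -0.29 on the Cy5 arrays and 1.03 and -0.27 on the Cy3 arrays, a mean of 0.04 ± 0.66 that was -0.29 without Cy3 array 1. UTP13 (YLR222C) had no value on Cy3 array 2; it had -0.34 and 0.19 on the Cy5 arrays and 1.21 on Cy3 array 1 (mean 0.35 ± 0.78, n = 3), and its mean turned to -0.07 without Cy3 array 1. DIP2 (YLR129W) averaged -0.21 ± 0.41 and UTP21 (YLR409C) -0.20 ± 0.52. Each had a single array above 0, Cy3 array 1 for DIP2 and Cy3 array 2 for UTP21.

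**Figure D2:**
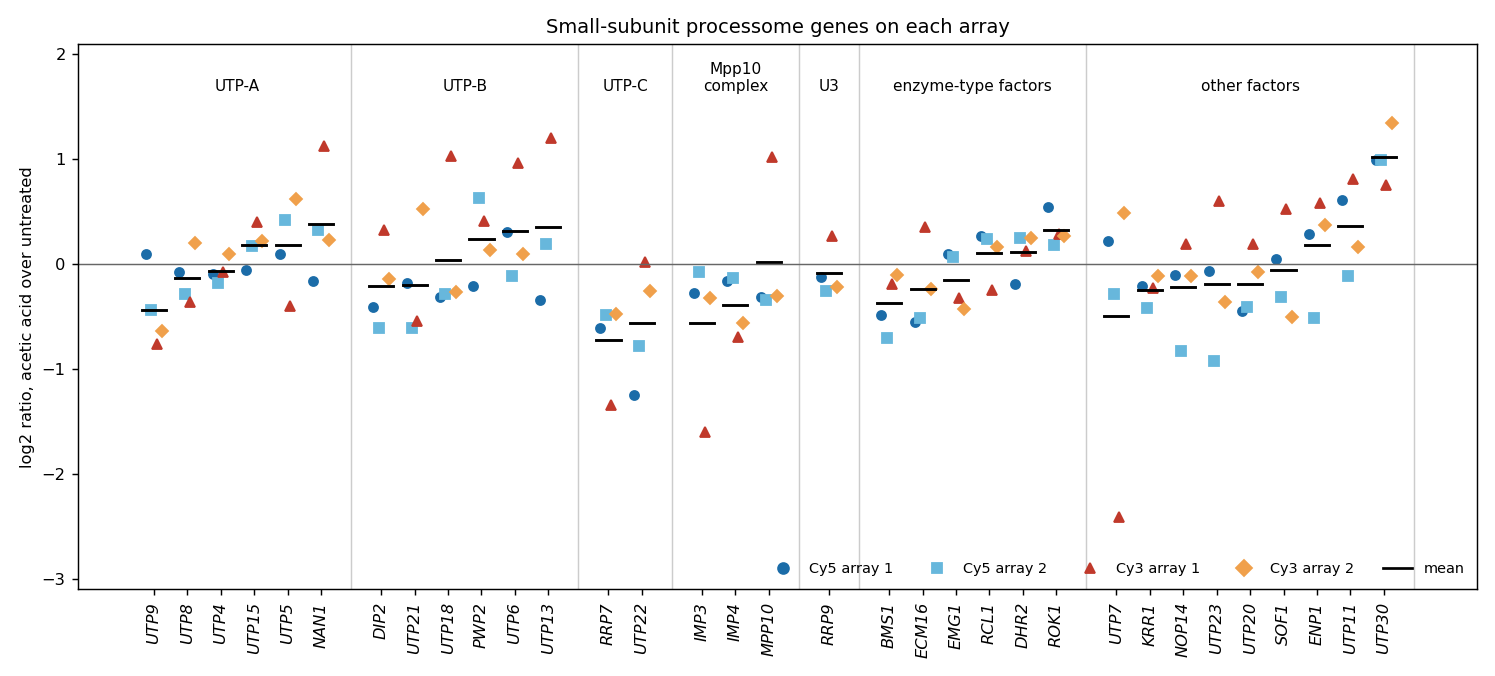
Log2 ratio of acetic acid over untreated (vertical axis) of each processome gene on each of the 4 arrays, by module, with the mean as a black bar; blue symbols are arrays with the acid-treated RNA in Cy5 and red and orange symbols those with it in Cy3. The red triangles, Cy3 array 1, hold the lowest value (-2.41, UTP7) and lie far from the other symbols for UTP18, MPP10, IMP3 and RRP7, while the symbols of UTP30 all lie above 0.7.

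Mpp10, Imp3 and Imp4 form a complex in which Imp3 and Imp4 help the U3 RNA pair with the precursor. The 3 genes did not pass in limma, 0 of them had an unadjusted p under 0.05, and their median was -0.39. IMP4 (YNL075W) had ratios of -0.16 and -0.13 on the Cy5 arrays and -0.70 and -0.56 on the Cy3 arrays, a mean of -0.39 ± 0.28 (adjusted p = 0.172). All arrays were below 0, and both Cy3 arrays were lower than both Cy5 arrays. IMP3 (YHR148W) had -0.27 and -0.07 on the Cy5 arrays and -1.60 and -0.32 on the Cy3 arrays; its mean of -0.56 ± 0.70 (adjusted p = 0.211) became -0.22 without Cy3 array 1. MPP10 (YJR002W) had -0.31 and -0.34 on the Cy5 arrays and 1.02 and -0.30 on the Cy3 arrays, so the array that was lowest for IMP3 was the one high value for MPP10. Its mean was 0.02 ± 0.67, and -0.32 without that array.

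RRP9 (YPR137W) encodes the protein that is specific to the U3 particle. It had ratios of -0.12 and -0.26 on the Cy5 arrays and 0.27 and -0.22 on the Cy3 arrays, a mean of -0.08 ± 0.24 (limma adjusted p = 0.741) with Cy3 array 1 alone above 0. The core proteins that U3 shares with other box C/D particles were NOP1, NOP56, NOP58 and SNU13. NOP1, the methyltransferase gene of these particles (fibrillarin), rose, with ratios of 2.87 and 2.84 on the Cy5 arrays and 2.37 and 2.69 on the Cy3 arrays (mean 2.69 ± 0.23, adjusted p = 0.000211; at most 0.00467 with any 1 array left out). NOP58 and SNU13 averaged 0.03 ± 0.47 and 0.08 ± 0.07, and NOP56 -0.52 ± 0.36 (adjusted p = 0.115). Without Cy3 array 1 NOP56 passed as lower, with a mean of -0.70 (adjusted p = 0.0183).

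Enzyme-type factors remodel the particle. Of the 6 tested, 0 passed in limma and 0 had an unadjusted p under 0.05, with means between -0.37 and 0.32. BMS1 (YPL217C), the gene of a GTPase, had ratios of -0.48 and -0.70 on the Cy5 arrays and -0.18 and -0.10 on the Cy3 arrays (mean -0.37 ± 0.28, adjusted p = 0.182), below 0 on every array. ROK1 (YGL171W), the gene of a DEAD-box helicase, had 0.55 and 0.18 on the Cy5 arrays and 0.29 and 0.27 on the Cy3 arrays (mean 0.32 ± 0.16, adjusted p = 0.178), above 0 on every array. RCL1 (YOL010W), whose product binds Bms1, had 0.27 and 0.24 on the Cy5 arrays and -0.25 and 0.16 on the Cy3 arrays (mean 0.11 ± 0.24), and so did not share the sign of BMS1.

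The remaining enzyme genes were helicases and a methyltransferase. ECM16 (YMR128W) and DHR2 encode DEAH-box helicases, the first of which unwinds U3 from the precursor; they averaged -0.24 ± 0.42 and 0.11 ± 0.21. DHR2 (YKL078W) had -0.19 and 0.25 on the Cy5 arrays and 0.13 and 0.26 on the Cy3 arrays, and thus a single array below 0. EMG1 (YLR186W), the gene of a methyltransferase that modifies a pseudouridine of 18S rRNA, averaged -0.15 ± 0.27.

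Of the 9 other factors UTP30 was the one that passed in limma, also at an unadjusted p under 0.05. The other 8 had means between -0.50 and 0.37. UTP11 (YKL099C) had ratios of 0.61 and -0.11 on the Cy5 arrays and 0.81 and 0.17 on the Cy3 arrays (mean 0.37 ± 0.42, adjusted p = 0.245). ENP1 (YBR247C), whose product stays with the precursor into late maturation, had 0.29 and -0.51 on the Cy5 arrays and 0.58 and 0.38 on the Cy3 arrays (mean 0.18 ± 0.48). Both were below 0 on Cy5 array 2 alone. UTP7 (YER082C) had the largest spread of all 33 genes, 0.23 and -0.29 on the Cy5 arrays and -2.41 and 0.49 on the Cy3 arrays; its mean of -0.50 ± 1.32 became 0.14 without the outlying array.

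KRR1 (YCL059C), a KH-domain factor gene, was below 0 on every array within a narrow range (-0.42 to -0.11; mean -0.24 ± 0.13, adjusted p = 0.275). NOP14 (YDL148C) averaged -0.21 ± 0.43, UTP23 (YOR004W) -0.19 ± 0.64, UTP20 (YBL004W), the gene of a very large scaffold protein, -0.18 ± 0.30, and SOF1 (YLL011W) -0.06 ± 0.45. NOP14, UTP23 and UTP20 were each above 0 on Cy3 array 1 and below it on the other 3 arrays.

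The processome genes did not share one direction across arrays. Their median was -0.12 and -0.29 on the Cy5 arrays (1 and 2) and 0.19 and -0.09 on the Cy3 arrays, against 0.00 and 0.00 on the Cy5 arrays and 0.04 and -0.02 on the Cy3 arrays for all genes tested. Above 0 lay 11 and 10 of 33 genes on the Cy5 arrays, and 20 of 33 and 15 of 32 on the Cy3 arrays. Of all genes tested 49.8% and 50.2% lay above 0 on the Cy5 arrays, and 52.4% and 47.8% on the Cy3 arrays. The same sign on every array was found for 7 of 33 processome genes (21.2%), against 42.6% of all genes tested: UTP30 and ROK1 above 0, and RRP7, IMP3, IMP4, BMS1 and KRR1 below it. The median SD over arrays, with Cy3 array 1 included, was 0.41 for the processome genes and 0.36 for all genes tested.

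**Figure D3:**
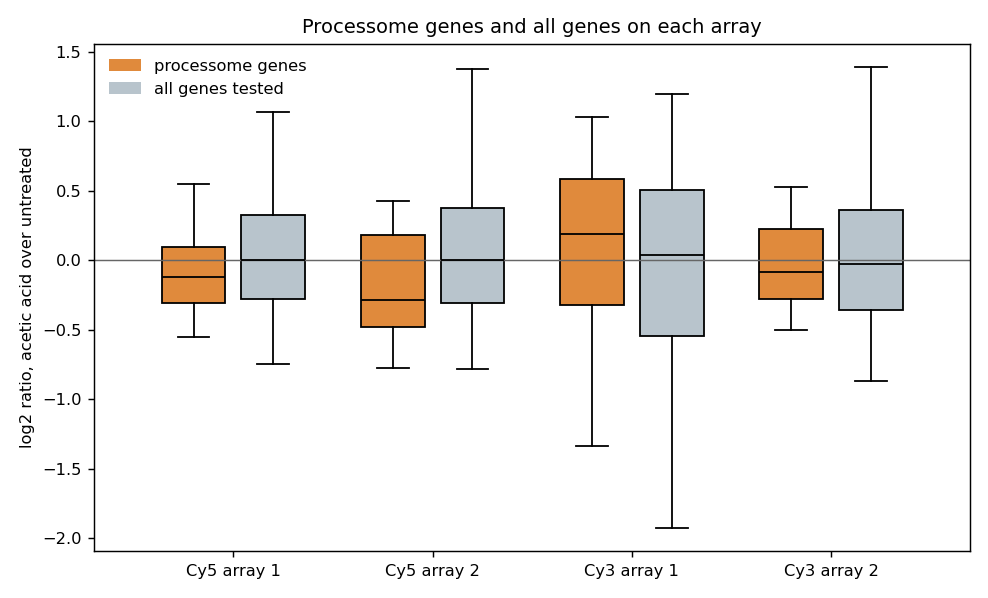
Log2 ratios of acetic acid over untreated (vertical axis) on each array for the processome genes (orange, 32 or 33 genes) and for all genes tested (grey); boxes span the quartiles, the line is the median and whiskers reach the 5th and 95th percentiles. The processome median is lowest on Cy5 array 2 (-0.29) and is above 0 on Cy3 array 1 (0.19), while the medians of all genes stay between -0.02 and 0.04.

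Cy3 array 1 was farthest from the gene's own median for 17 of 33 processome genes, close to its share among all genes (46.7%). A pattern noticed in the values concerned its sign: of 32 processome genes with 4 values, 9 (28.1%) were below 0 on the other 3 arrays and above it on this one, against 9.13% of all genes with 4 values. They were MPP10, UTP18, UTP22, UTP20, UTP23, DIP2, NOP14, ECM16 and RRP9. In all, 14 of 32 (43.8%) were below 0 on the other 3 arrays, against 28.4% of all genes. Leaving the array out gave a processome median of -0.14 over 32 genes, with 1 gene higher (UTP30) and 1 lower (RRP7) beside 12.1% higher and 4.43% lower over all genes. Without it the means of UTP23, ECM16, DIP2, NOP14, UTP20, SOF1 and RRP9 were farther below 0, at -0.45, -0.43, -0.38, -0.35, -0.31, -0.26 and -0.20, and those of UTP5 and RCL1 farther above it, at 0.38 and 0.22. Those of UTP11, UTP15, ENP1, UTP8, UTP21 and EMG1 were nearer to 0, at 0.22, 0.12, 0.05, -0.05, -0.09 and -0.09. What sets this array apart was not tested.

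**Figure D4:**
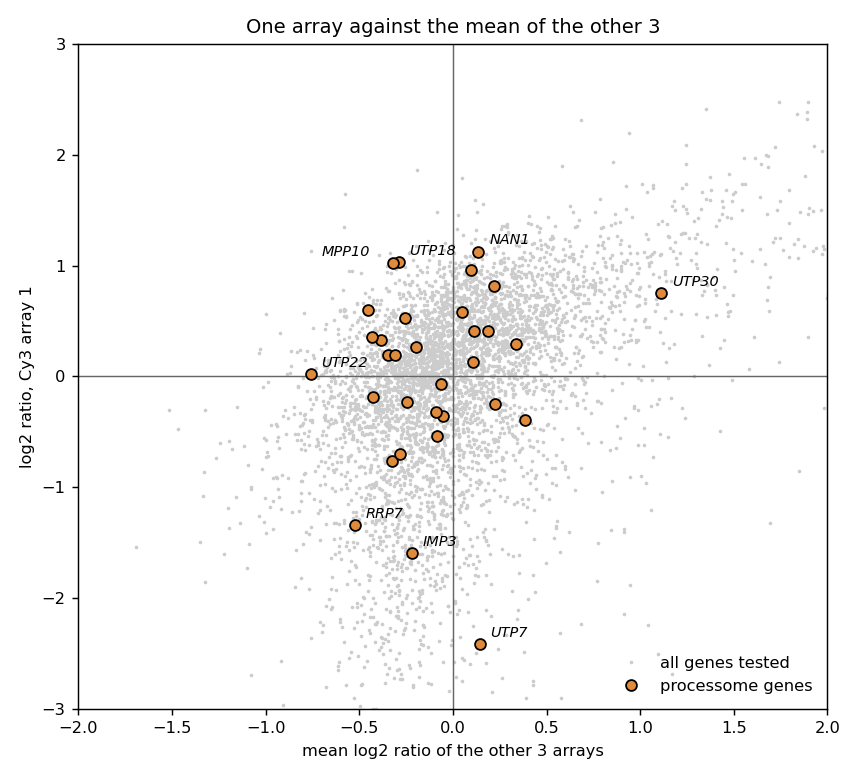
Log2 ratio on Cy3 array 1 (vertical axis) against the mean log2 ratio of the other 3 arrays (horizontal axis) for the 32 processome genes with 4 values (orange) and all genes with 4 values (grey; genes beyond the axes are not drawn). UTP30 lies at the upper right and RRP7 at the lower left, while a group with MPP10 and UTP18 lies left of 0 and above it.

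Because the treated RNA was in Cy5 on some arrays and in Cy3 on the others, the ratios were also tested for following the dye. In limma 0 of 33 processome genes differed between the orientations, beside 0.227% of all genes. At an unadjusted p under 0.05 there were 2 of 33, a share not counted over all genes. The smallest adjusted p was 0.665 (UTP22, -0.89 for acid in Cy5 minus acid in Cy3). UTP13 differed by -1.28, but without a value on Cy3 array 2 this set Cy3 array 1 alone against the Cy5 arrays. With Cy3 array 2 left out, the remaining arrays set Cy3 array 1 alone against the pair of Cy5 arrays, the lone array being assumed to vary like that pair. In that fit, chosen after the data were seen, 7 of 33 processome genes differed (UTP7, IMP3, UTP18, MPP10, UTP13, UTP23 and NAN1), beside 17.8% of all genes.

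By rank correlation over all genes, gene length moved with the ratios on 1 array, Cy5 array 1. A rank correlation can miss a trend limited to the longest genes, so it does not show the other arrays to be free of one. The processome genes are long, with a median of 1728 bases in the reference gene table against 1209 over the 4912 genes tested that had a length. Across the 33 genes, which share each array, Spearman's rho of ratio with length was -0.57 and -0.25 on the Cy5 arrays and 0.10 and 0.17 on the Cy3 arrays; over all genes it was -0.26 and 0.00 on the Cy5 arrays and 0.00 and 0.01 on the Cy3 arrays. With a loess trend on length removed from every array the processome median was 0.06, and 18 of 33 means lay above 0. The median over all genes was 0.007 in that fit, and their share above 0 was not counted. UTP30 kept its call there, and BMS1, a gene of 3552 bases, had a mean of 0.06. UTP20 turned to 0.60 (adjusted p = 0.0794) and ECM16 to 0.23 (adjusted p = 0.452).

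Other genes of the pathway were set beside the processome genes. Over all genes tested 8.85% were higher, 2.02% were lower and 29.8% had an unadjusted p under 0.05. Of 23 further factors of the same early particle, 0 passed in limma and the median was -0.01. An unadjusted p under 0.05 was found for 7 (30.4%), close to the share of all genes. Those with the smallest p were NOC4, with a mean of 0.50 ± 0.17 (adjusted p = 0.0777), and SQS1, a helicase activator gene, with -0.59 ± 0.34 (adjusted p = 0.0832). Of 8 late maturation factors of the small subunit 0 passed, 2 having an unadjusted p under 0.05. TSR1 was below 0 on every array (-0.54 ± 0.22, adjusted p = 0.0714) and the kinase gene RIO2 above it (0.54 ± 0.23, adjusted p = 0.0724). Without Cy3 array 1, FAL1, a helicase gene of the early particle, passed as higher with a mean of 0.68 (adjusted p = 0.0220).

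Of 11 genes of RNA polymerase I and its factors, which transcribe the precursor, 0 passed and 0 had an unadjusted p under 0.05; RRN5 and RRN3 had the smallest p, with means of 0.32 ± 0.21 and -0.33 ± 0.26 (adjusted p = 0.201 and 0.211). Among 46 assembly factors of the large subunit, 1 rose and 0 fell, beside 8.85% and 2.02% of all genes, and the median was 0.08. An unadjusted p under 0.05 was found for 6 (13.0%, against 29.8% of all genes). DBP3, a DEAD-box helicase gene, rose by 0.99 ± 0.46 (adjusted p = 0.0320), but its adjusted p reached 0.138 with 1 array left out, and 0 of these genes passed without Cy5 array 1, Cy5 array 2 or Cy3 array 2. Without Cy3 array 1, URB1 passed as lower (mean -0.70, adjusted p = 0.0228). Of 52 genes of small-subunit ribosomal proteins 0 passed and 15 had an unadjusted p under 0.05 (28.85%, against 29.84% of all genes). Above 0 lay 8 means (15.4%, against 46.7% of all genes tested) and the median was -0.25. RPS22A averaged -0.61 ± 0.21 and RPS1A 0.64 ± 0.29 (adjusted p = 0.0509 and 0.0593), both with near-identical copies. The copies RPS22B and RPS1B averaged 0.30 ± 0.43 and 0.15 ± 0.23, so RPS22B did not share the sign of RPS22A. Without Cy3 array 1 the counts of these ribosomal protein genes were 1 higher and 4 lower of 51, beside 12.1% higher and 4.43% lower over all genes. Quantile normalization and the replicate number as a random block each gave 1 higher and 2 lower of 52. Over all genes those fits gave 10.2% and 10.5% higher and 5.07% and 3.33% lower.

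Regulators of ribosome assembly genes included 1 that rose, of 7 tested, beside 8.85% of all genes. STB3, which encodes a repressor that binds an element common in the promoters of these genes, had ratios of 0.63 and 0.78 on the Cy5 arrays and 0.86 and 0.96 on the Cy3 arrays (mean 0.81 ± 0.14, adjusted p = 0.0171). It lost its call without Cy5 array 1, Cy5 array 2 or Cy3 array 2, with an adjusted p of up to 0.0984, and 0 regulators passed with same-numbered arrays averaged as a replicate block. The other 6 regulators tested did not pass, their means running from -0.62 for FHL1, a factor of ribosomal protein genes, to 0.48 for DOT6, a repressor gene. FHL1 passed as lower without Cy3 array 1 (mean -0.75, adjusted p = 0.0261).

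**Figure D5:**
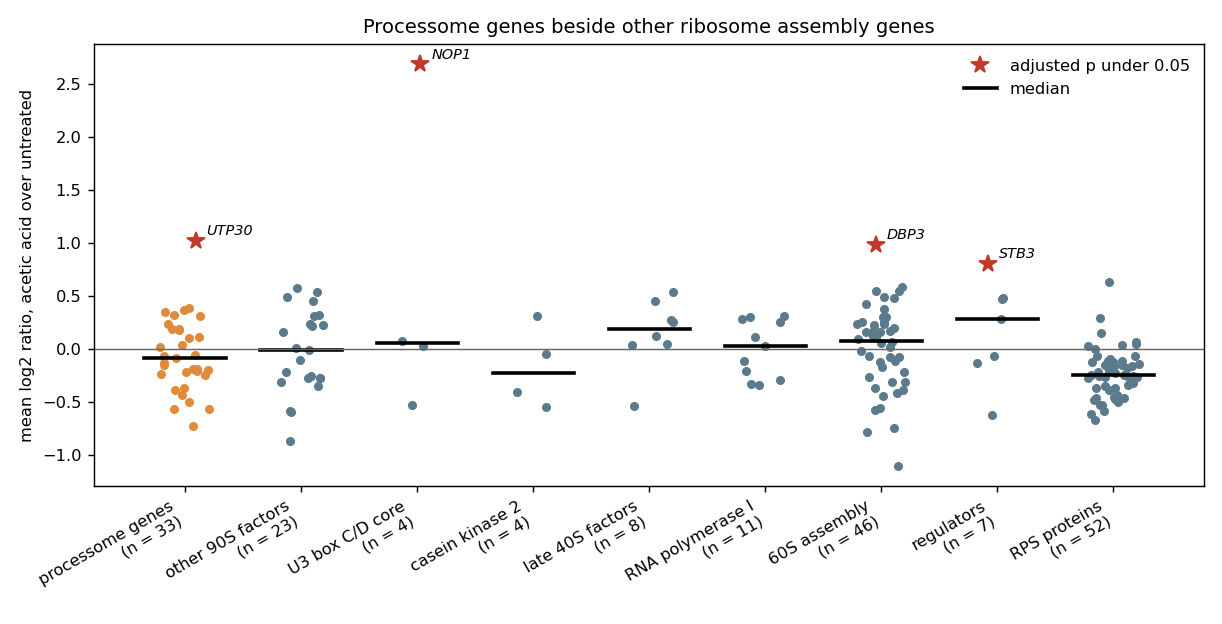
Mean log2 ratio of acetic acid over untreated (vertical axis) of each gene, for the processome genes (orange) and for 8 lists of related genes; red stars passed an adjusted p of 0.05 and black bars are medians. UTP30, NOP1, DBP3 and STB3 are the stars, and the medians of the lists run from -0.25 for small-subunit ribosomal proteins to 0.28 for regulators.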

How the data were processed

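The authors deposited 1 log2 ratio per gene and array (base 2 assumed from signed values with medians near 0), from acid-phenol total RNA with indirect labelling, per the labels' protocols. For scanner, background correction and normalization, the method is not given in the sources used here. Depth does not apply to arrays. Arrays of opposite dye orientation correlated above 0, so they had already been turned one way.

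Of 5799 names, 5336 matched the R64 gene table, which gave symbols and lengths. The 5291 genes with values on at least 3 arrays entered an intercept fit in limma 3.58.1 (R 4.3.3; lmFit, eBayes). Tests were two-sided at a Benjamini-Hochberg adjusted p of 0.05, and a second fit had a dye term. The fit was tested on simulated data. Whether cultures were independent for same-numbered arrays is not stated. Values on every array are given for genes past the threshold, the 2 of smallest p per module, and those at least 2-fold changed or with a sign opposite to the processome median; some others are added. From each related list up to 4 genes past the threshold are named, or the 2 of smallest p. Members and lists were chosen with earlier results of these data known. Alternatives are in the closing section. Sequences were not analysed here.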

Additional observations from a re-analysis of the deposited data

Results flagged for a closer look

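On Cy3 array 1, 4 of the 32 processome genes with 4 values lay so far from the other arrays that the gap exceeded Dixon's 95% critical value: UTP18 with a log2 ratio of 1.03, MPP10 with 1.02, IMP3 with -1.60 and RRP7 with -1.34. Chance flags about 1 in 20 genes where the arrays vary alike, and all 4 flags fell on this array. Cy3 array 1 had a wider spread than the others and was farthest from the gene's own median for 46.7% of all genes. The share of all genes past the Dixon value was not counted, so no excess among the processome genes is claimed. EMG1 was above 0 on both Cy5 arrays (0.10 and 0.07) and below it on both Cy3 arrays (-0.32 and -0.43), a difference of 0.46; the dye term of limma did not pass for it, as for the other processome genes.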

How the results depend on the processing

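UTP30 passed as higher under every alternative fit with all arrays except limma without shared variance (0 processome genes higher); the count was 0 to 1 with single arrays left out. Over all genes 9.85% were higher with arrays scaled to one spread and 10.2% under quantile normalization. With a dye term 9.87% were higher, and with the replicate number as a random block 10.5%. The count of lower genes was 1, RRP7, with arrays scaled to one spread (adjusted p = 0.0316), quantile normalization (0.0201), a dye term (0.0493) and the replicate number as a random block (0.0479; estimated correlation -0.1088), beside 3.52%, 5.07%, 3.91% and 3.33% of all genes lower in those fits, and 0 to 1 with single arrays left out. The negative correlation of the random block makes the standard error of a mean smaller than without a block. The deviations of arrays sharing a number correlated at 0.252. With only 2 pairs this was not read as pairing. With same-numbered arrays averaged, as a replicate block of n = 2, the counts were 1 higher and 0 lower, beside 5.78% higher and 1.34% lower over all genes. RRP7 had a limma adjusted p of 0.110 in that fit. The processome median lay between -0.14 and 0.06 over 15 alternatives. The means of UTP18 and MPP10 changed sign when scaled (-0.0666 and -0.0910), under quantile normalization (-0.0190 and -0.0531), with the length trend removed (-0.0045 and -0.0284), and with single arrays left out (-0.29 to 0.16 and -0.32 to 0.14), as did those of UTP7 (-0.8247 to 0.1423), UTP23 (-0.451 to 0.058) and SOF1 (-0.2553 to 0.08867) with single arrays left out. With the length trend removed the means of BMS1 (0.0596), UTP4 (0.05951), DIP2 (0.06559), UTP20 (0.6023), UTP21 (0.07) and ECM16 (0.2343) turned above 0; the cause was not tested. The count following the dye was 0 to 7 with single arrays left out and 0 otherwise. Signal over background is unknown, so a dim spot cannot be told from an unchanged gene.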
